A study of Mus musculus with 37 samples.

Results

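The renal vesicle, the first epithelial structure of the nephron, was compared with the metanephric mesenchyme it forms from, across all genes of a whole-genome Affymetrix array. Arrays were taken by the tissue name of each sample: 5 of renal vesicle and 8 of metanephric mesenchyme, which are 13 of the 37 arrays that cover 9 components of the developing mouse kidney. All embryos were wild-type CD-1, an outbred mouse stock, of unknown sex, and carried no allele and received no agent. Renal vesicles came from embryos of day E12.5 (Theiler stage 20) and mesenchyme from embryos of day E11.5 (Theiler stage 19), so that structure and stage cannot be told apart in any value given here. Each array received RNA pooled from about 50 sections of 5 kidneys, which the labels' protocols say were collected by laser capture microdissection, the cutting of chosen cells from a frozen section with a laser, and amplified in 2 rounds. The sample titles differ on this point for the mesenchyme: 3 name laser capture (LCM, replicates 1, 3 and 4), 2 name dissection (replicates 5 and 7), 2 name collagenase (replicates 6 and 8) and replicate 2 names no way. The titles of the renal vesicle arrays name none, but carry dates: replicates 1 and 2 share one, replicates 4 and 5 share another, and no mesenchyme title has either or that of replicate 3. The animals behind a pool are not given, so p-values measure the spread between pooled samples, which may in part be technical. That spread is estimated over all 37 arrays of the 9 components, not over the 13 arrays alone.

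In the embryonic kidney, signals from the ureteric bud make mesenchyme cells gather around its tips as a cap of nephron progenitors. Wnt9b from the bud induces part of the cap to express Wnt4, Fgf8, Pax8 and Lhx1, to aggregate and to turn into an epithelial vesicle with a lumen, cell junctions and a basement membrane. Notch signals then act in the vesicle to set up its proximal fate, while Six2 keeps the remaining cap cells undifferentiated. The mesenchyme of the earlier day also holds stromal progenitors, vessel cells and blood.

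Levels are given on a log2 scale after quantile normalization, with an offset of 34.62 signal units added before the logarithm, so that values near 5.11 lie at the floor. A gene was called when the adjusted p of limma was under 0.05 and the log2 fold change, vesicle minus mesenchyme, was at least 1 in size. Rose and fell are used only of called genes. The median deposited signal ran from 140 to 197.1 over the 13 arrays. Pearson's r between arrays, computed over genes (no replicates of a condition), was 0.813 to 0.921 within the vesicle, 0.886 to 0.978 within the mesenchyme and 0.789 to 0.931 between them. Vesicle replicates 2 and 3 stood apart from the other 3. Their mean level over 10 ureteric epithelium markers was 10.57 and 10.33, against 8.87 to 9.12 in the others and 11.74 to 12.14 in the ureteric bud arrays of the series. On 13 stroma markers replicate 3 stood at 11.60 and replicate 2 at 10.31, against 9.27 to 9.49 in the others and 10.73 to 11.83 in the mesenchyme. The mesenchyme arrays separated too: the ureteric list stood at 8.89 to 10.11 in replicates 1 to 4 and at 7.64 to 8.05 in the 4 arrays titled dissection or collagenase. Results are therefore given with and without vesicle replicates 2 and 3 (a choice made after seeing the data), and against the LCM-titled arrays alone, where a call depends on them.

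**Figure D1:**
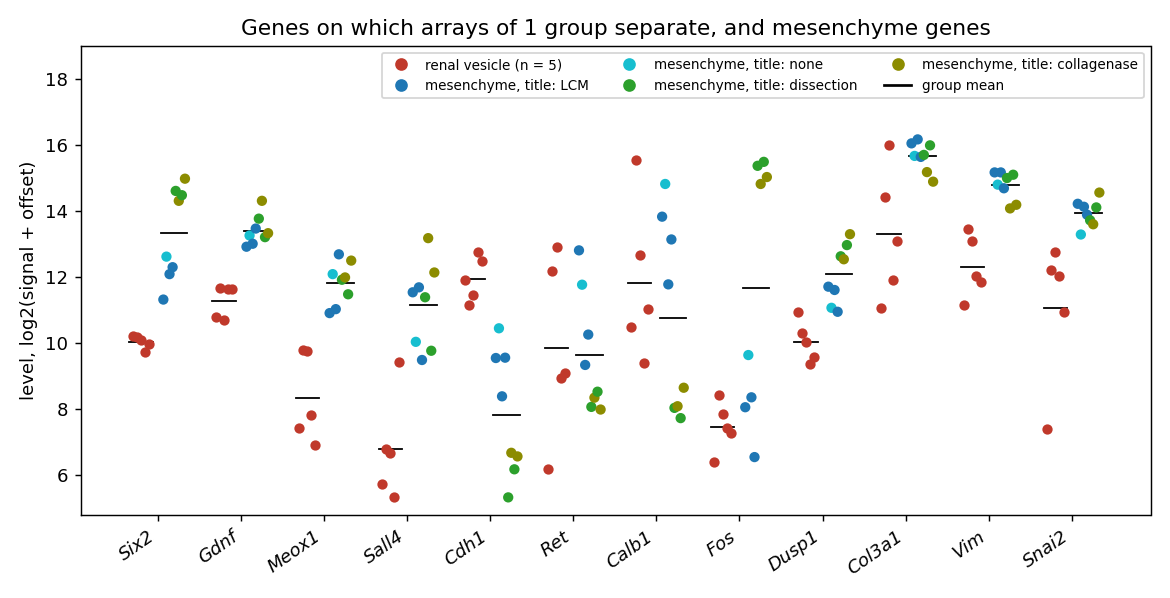
Levels of 12 genes, log2(signal + offset) on the vertical axis, in each of the 5 renal vesicle arrays (red) and the 8 mesenchyme arrays, coloured by the way of obtaining tissue that the title names; black lines are group means. Six2, Fos, Dusp1, Calb1 and Cdh1 separate the 4 mesenchyme arrays titled dissection or collagenase from the other 4, and among the vesicle arrays Ret and Calb1 are highest in replicates 2 and 3.

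Of 15709 genes tested, 608 were called higher in the vesicle (3.87%) and 1246 lower (7.93%), 11.8% in either direction. The median log2 fold change over all genes was -0.057. The ranges of the groups did not overlap for 1019 genes (6.49%). An unadjusted p under 0.05 was reached by 4362 genes. With vesicle replicates 2 and 3 left out there were 501 higher and 1195 lower calls, of which 401 and 890 were among the calls over all 13 arrays. Against the 3 LCM-titled mesenchyme arrays alone there were 149 and 296 calls, of which 135 and 282 were among the calls against all 8. That contrast shares its vesicle arrays and 3 mesenchyme arrays with the one against all 8. All 608 rises and 1246 falls kept their sign in it. With 3 mesenchyme arrays in place of 8 the standard error is larger at equal spread, so fewer calls are made at the same fold change. Against the 4 arrays titled dissection or collagenase there were 820 and 1366.

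**Figure D2:**
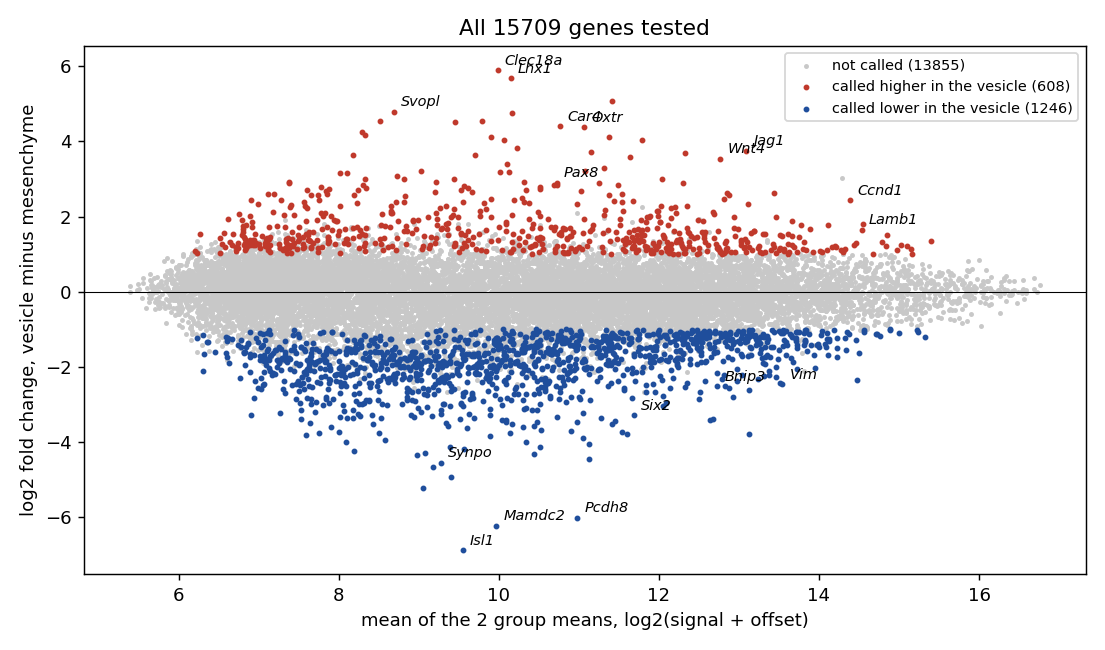
Each point is 1 of 15709 genes, placed by the mean of the group means (horizontal, log2(signal + offset)) and by its log2 fold change, vesicle minus mesenchyme (vertical). Red points are the 608 genes called higher in the vesicle and blue points the 1246 called lower; Lhx1 stands at 5.68 and Pcdh8 at -6.03.

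The 10 largest rises without overlap held Clec18a (a rise of 5.90), Lhx1 (5.68), Ano1 (5.08), Papss2 (4.75), Cxcl14 (4.55) and Lhx1os, and the next 4 genes given. Without probe sets that may cross-hybridize Ano1 was at 2.62. The other probe sets of Papss2 gave 0.798 and 1.212 and were not called. Svopl, a gene of the transporter superfamily that holds the synaptic vesicle protein SV2, stood at 11.77, 10.85, 10.01, 11.34 and 11.46 in vesicle replicates 1 to 5, and at 5.59 to 6.95 in the mesenchyme (median 6.41). It rose by 4.79 (SE 0.57, adjusted p = 7.17e-07), with the groups far apart, though it rests on 1 probe set of the kind that can cross-hybridize. Car4, a membrane-bound carbonic anhydrase of tubule epithelium, stood at 13.56, 12.40, 12.91, 13.02 and 12.97 against 7.68 to 9.31 (median 8.59), a rise of 4.40 (SE 0.50, adjusted p = 4.28e-07). Oxtr, the oxytocin receptor gene, stood at 13.70, 12.43, 12.39, 14.02 and 13.74 against 8.25 to 9.45 (median 8.89), a rise of 4.38 (SE 0.63, adjusted p = 1.39e-05). The lowest vesicle array lay above the highest mesenchyme array for each of these 3 genes. Eva1a, a gene of autophagy and cell death, rose by 4.54 (SE 0.77, adjusted p = 0.000132), with vesicle replicate 4 at 10.58 and the other 4 between 12.11 and 12.72. Among genes picked out after their values were seen, the vesicular GABA transporter gene Slc32a1 rose by 4.25, the heparan sulfate sulfotransferase gene Hs3st3b1 by 4.03, the chaperone gene clusterin (Clu) by 3.69 in all 4 of its probe sets and the growth factor gene Pdgfa by 3.00. The receptor of the last, Pdgfra, a stromal gene, fell by 2.81, with vesicle arrays at 9.98 to 13.02 and mesenchyme arrays at 13.48 to 14.89. All of these were called against the LCM-titled arrays alone and without vesicle replicates 2 and 3.

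The 10 largest falls without overlap held Isl1 (a log2 fold change of -6.89), Mamdc2 (-6.24), Pcdh8 (-6.03), Zfpm2 (-4.95), Sall4 (-4.36, with its other probe set at 0.159 and not called) and the 5 genes that follow. Synpo, an actin-binding protein gene that is later a mark of podocytes, stood at 5.34, 7.19, 7.52, 7.27 and 7.66 in the vesicle and at 9.76 to 12.35 in the mesenchyme (median 11.65). It fell by 4.55 (SE 0.73, adjusted p = 5.46e-05) without overlap. Palld, another actin-associated gene, fell by 4.33 (SE 0.58) and the pentraxin gene Ptx3, a secreted pattern receptor, fell by 4.30. Csrnp3, a nuclear protein gene, fell by 4.24. Adgrl3, an adhesion receptor gene, fell by 5.24, but vesicle replicate 2 stood at 10.75, just under the lowest mesenchyme array at 10.86, and the other 4 at 5.28 to 5.44. For that gene the value without probe sets that may cross-hybridize was -2.0, and against the LCM-titled arrays alone it was at -4.63 and not called. Where a level is lower in pooled tissue, fewer cells of a type and less RNA per cell cannot be told apart.

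The signals and transcription factors of nephron induction rose nearly throughout. Of 17 tested genes of a renal vesicle list 16 rose (94.1%, against 3.87% of all genes) and none fell. The median was 2.91 against -0.057 over all genes. The list was chosen with earlier results of these data known, so its count is a description and no separate support. The exception was Sox9. Wnt4, the signal that acts back on the aggregating cells, stood at 15.11, 14.03, 13.62, 15.21 and 14.72 in the vesicle and at 10.20 to 12.04 in the mesenchyme (median 10.81). It rose by 3.53 (SE 0.69, adjusted p = 0.00059). Fgf8, a growth factor of survival in the early vesicle, was weak in both groups, at 9.84, 7.69, 8.52, 9.34 and 8.75 against 5.27 to 6.92 (median 5.65), and rose by 2.91 (SE 0.74, adjusted p = 0.00647). Both groups stayed apart for these genes, and the mesenchyme lay near the floor for Fgf8. Pax8, a paired-box factor of the nephric lineage, stood at 11.81, 12.01, 11.60, 12.60 and 12.85 against a narrow 9.06 to 9.51 (median 9.26), a rise of 2.90 (SE 0.41, adjusted p = 1.02e-05).

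Lhx1, the LIM homeobox gene needed for the vesicle to be patterned, and Lhx1os, a transcript that runs the opposite way from the same promoter region, moved together. Their RefSeq starts (assembly GRCm38.p6) lie 125 bases apart on chromosome 11. The 250 bases before the Lhx1 start are shown 5′ to 3′ on the Lhx1 strand, chr11:84525535-84525784 on the minus strand, because Lhx1 begins at its 3′ end and Lhx1os inside it, with the stretch between the 2 starts in capitals.
Lhx1: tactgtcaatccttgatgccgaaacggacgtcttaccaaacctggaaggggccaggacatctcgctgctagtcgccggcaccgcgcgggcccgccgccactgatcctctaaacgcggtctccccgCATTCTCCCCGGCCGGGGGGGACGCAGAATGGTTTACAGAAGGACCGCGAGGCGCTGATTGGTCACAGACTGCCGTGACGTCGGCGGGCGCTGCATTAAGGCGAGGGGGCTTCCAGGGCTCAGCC
Lhx1 stood at 13.29, 12.87, 10.75, 14.19 and 13.83 in the vesicle, against 5.41 to 9.33 in the mesenchyme (median 7.65). Lhx1os stood at 10.95 to 12.42 in the vesicle, against 5.56 to 8.77 (median 6.82), and rose by 4.51 (SE 0.55, adjusted p = 1.17e-06). In both, every vesicle array exceeded every mesenchyme array. For Lhx1 the 4 mesenchyme arrays titled dissection or collagenase were the lowest. The probe sets of the pair are separate, and whether either transcript acts on the other was not measured.

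Other regulators of the vesicle rose as well. Bmp2, a ligand of the bone morphogenetic protein family, stood at 13.84, 12.71, 12.31, 15.60 and 14.57 against 8.72 to 10.90 (median 9.67) and rose by 4.03 (SE 0.53, adjusted p = 4.92e-06). Pou3f3, a POU-domain factor of the forming nephron tubule, stood at 13.58, 13.33, 12.38, 14.23 and 13.68 against 5.25 to 12.20 (median 9.21), a rise of 4.12 (SE 0.83, adjusted p = 0.000836). The width of the mesenchyme range for Pou3f3 followed the titles: 9.96 to 11.61 in the LCM arrays, 12.20 in the untitled one and 5.25 to 8.45 in the dissection and collagenase arrays. When only the LCM-titled arrays were the mesenchyme Pou3f3 was at 2.72 and not called. Its other probe set gave 0.075 against all mesenchyme arrays and was not called. Irx3, an Iroquois factor of the later middle segments, rose by 3.21 (SE 0.57, adjusted p = 0.000216), from 8.86 to 10.26 in the mesenchyme to 11.25 to 14.36 in the vesicle. Its relatives Irx1 (log2 fold change 1.21, adjusted p = 0.0937) and Irx2 (0.15, adjusted p = 0.886) were not called. The cadherin gene Cdh6, a mark of the future proximal tubule, rose by 2.22, and Emx2, a homeobox gene of both nephron and ureteric epithelium, by 2.83 with overlapping ranges (10.69 to 13.46 against 6.65 to 10.95). The Wnt inhibitor gene Dkk1 rose by 2.85 (adjusted p = 0.0264), but without vesicle replicate 1, 4 or 5 it stood at 2.58 to 2.77 with adjusted p = 0.0521 to 0.0759. Greb1, a gene known for its response to estrogen, rose by 2.58 at the edge of the threshold (adjusted p = 0.0493) and lost the call, at 2.35 to 2.71, when vesicle replicate 1, 3, 4 or 5 or any of mesenchyme replicates 1 to 7 was left out. Those values are of its probe set with the highest mean. Another Greb1 probe set was called at 3.92 (limma, p adjusted over all probe sets kept = 0.000228), and the rest, at 1.23 and 0.40, were not. Sox9 stood at 6.91 to 9.33 in the vesicle and 8.25 to 12.16 in the mesenchyme, a log2 fold change of -1.67 (adjusted p = 0.0641) that was called lower without mesenchyme replicate 2 or 4 (-1.94 and -1.93). The other probe sets of Sox9 gave -0.17 and 0.593 and were not called. Compared with the LCM-titled arrays alone Fgf8 (2.65), Cdh6 (2.03), Dkk1 (1.90), Emx2 (1.80) and Greb1 (2.55) were not called either, and 10 of the 17 were. Without vesicle replicates 2 and 3, 15 of the 17 were called, and Greb1 (3.10) was not.

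**Figure D3:**
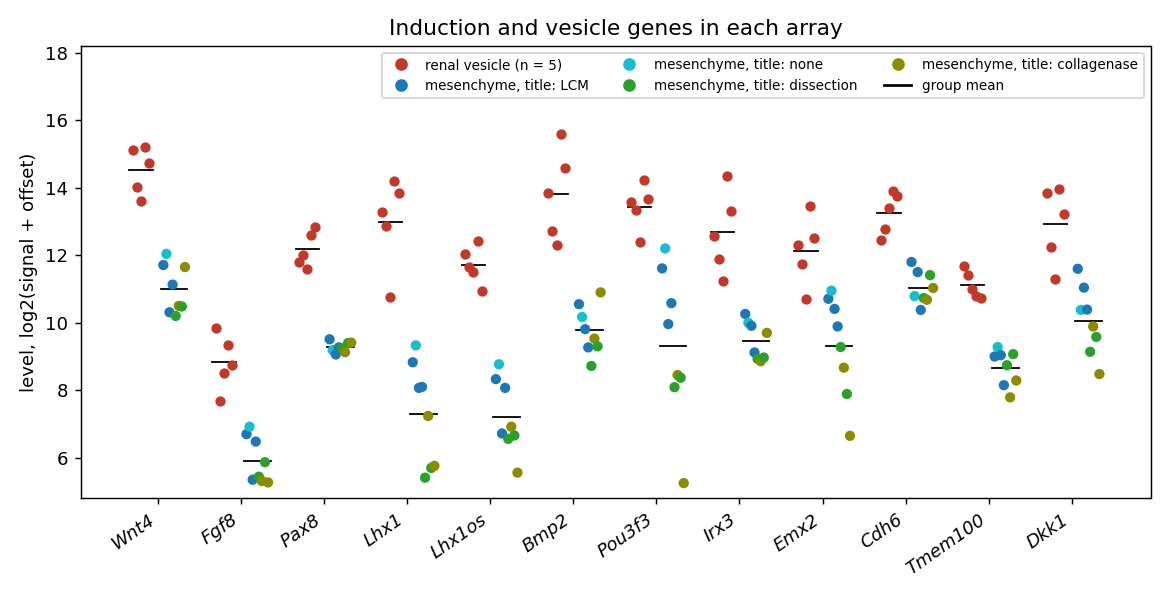
Levels of 12 induction and vesicle genes, log2(signal + offset) on the vertical axis, in each renal vesicle array (red) and each mesenchyme array (coloured by title); black lines are group means. For Wnt4, Fgf8, Pax8, Lhx1, Lhx1os, Bmp2, Pou3f3, Irx3, Cdh6 and Tmem100 every vesicle array lies above every mesenchyme array, and for Emx2 and Dkk1 the ranges meet.

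Notch ligands, receptors and some targets rose in the vesicle. Of 21 tested pathway genes 8 rose (38.1%, against 3.87% of all genes) and 1 fell (4.8%, against 7.93%), with a median of 0.31. Jag1, Dll1, Hes5 and Heyl are also in the renal vesicle list. The mean level over the list was 10.90 to 11.31 in the vesicle and 10.11 to 10.84 in the mesenchyme, without overlap. Jag1, a ligand gene, stood at 15.28, 14.36, 14.71, 15.40 and 15.08, against 10.05 to 12.10 in the mesenchyme (median 11.18). Dll1, another ligand gene, stood at 12.92, 11.90, 12.25, 13.59 and 14.17 against 7.91 to 10.54 (median 9.75). Neither ligand overlapped between groups. The receptor gene Notch1 stood at 13.35, 12.64, 12.80, 13.44 and 13.41 against 10.15 to 11.67 (median 11.24) and rose by 1.95 (SE 0.30, adjusted p = 3.68e-05). Notch2, the receptor required for proximal nephron fate, stood at 15.10, 13.46, 14.24, 14.28 and 14.96 against 12.16 to 13.62 (median 12.85) and rose by 1.48 (SE 0.30, adjusted p = 0.000977). Vesicle replicate 2 of Notch2 lay inside the mesenchyme range. Notch3, a receptor of mural cells, had a log2 fold change of 0.05 (adjusted p = 0.944). Notch4, an endothelial receptor, fell by 1.32 (adjusted p = 0.0226), but without vesicle replicate 1 or 2 it was at -1.22 to -1.04 and not called.

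The targets of Notch divided. For the 6 direct targets Hes1, Hes5, Hey1, Hey2, Heyl and Nrarp the RefSeq windows of 250 bases before to 50 after a gene's start were searched for TGGGAA on both strands, the core letters that the Notch partner Rbpj binds. The letters are in 25.6% of the 32851 windows. Windows were in the table for Hes5 and Hey2, with 2 matches each, and for Nrarp, with none. The stretches are shown 5′ to 3′ on the gene's strand with matches in capitals, to set a target that rose with 2 matches beside one that was not called with 2 matches and one that rose with none: Hes5 at chr4:154960673-154960922 (plus strand), Hey2 at chr10:30842781-30843033 (minus strand) and Nrarp at chr2:25180508-25180757 (plus strand), all GRCm38.p6.
Hes5: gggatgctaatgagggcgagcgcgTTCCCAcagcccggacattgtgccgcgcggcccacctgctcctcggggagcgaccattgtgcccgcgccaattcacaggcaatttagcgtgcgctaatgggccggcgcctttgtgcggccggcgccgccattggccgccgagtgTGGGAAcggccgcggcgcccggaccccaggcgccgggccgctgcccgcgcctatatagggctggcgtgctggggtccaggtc
Hey2: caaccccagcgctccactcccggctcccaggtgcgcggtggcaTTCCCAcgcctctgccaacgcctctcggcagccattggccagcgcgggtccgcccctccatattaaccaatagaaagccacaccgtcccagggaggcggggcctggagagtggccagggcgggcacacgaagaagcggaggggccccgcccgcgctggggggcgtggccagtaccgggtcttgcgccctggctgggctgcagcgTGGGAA
Nrarp: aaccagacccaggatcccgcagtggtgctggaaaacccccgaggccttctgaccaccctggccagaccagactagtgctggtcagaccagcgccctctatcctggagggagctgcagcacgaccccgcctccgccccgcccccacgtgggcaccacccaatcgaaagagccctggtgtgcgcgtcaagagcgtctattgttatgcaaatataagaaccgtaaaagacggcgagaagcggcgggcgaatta
The matches of Hes5 begin 226 and 82 bases before its start and those of Hey2 207 and 3 bases before its start. Hes5, a repressor gene, stood at 11.01, 9.16, 10.02, 10.75 and 10.61 in the vesicle and at 6.0 to 9.65 in the mesenchyme (median 7.17), a rise of 2.99 (SE 0.68, adjusted p = 0.00266). Hey2, a related repressor gene, stood at 5.74, 8.01, 7.66, 8.39 and 7.06 against 6.86 to 8.28 (median 8.11), a log2 fold change of -0.47 (adjusted p = 0.534). Hes5 was lowest in vesicle replicate 2, which lay below the highest mesenchyme array, and for Hey2 the groups overlapped almost wholly. Nrarp, a feedback inhibitor gene of the pathway, stood at 12.89, 12.57, 11.13, 12.16 and 13.09 against 9.90 to 11.74 (median 11.01) and rose by 1.36 (adjusted p = 0.0159); without vesicle replicate 1 or 5 it was at 1.18 to 1.23 with adjusted p = 0.0563 to 0.0569. Heyl, at 9.64 to 11.60 against 7.96 to 9.60, rose by 1.99 (SE 0.46, adjusted p = 0.00338), with the nearest arrays of the groups almost level. Hey1, at 13.54 to 14.50 against 10.99 to 13.16, rose by 1.62 (adjusted p = 0.0186), and stood at 1.5 with adjusted p = 0.0575 without vesicle replicate 1. Hes1 was at 10.84 to 12.08 against 9.33 to 11.88, with a log2 fold change of 0.31 (adjusted p = 0.656). The Notch partner gene Rbpj had a log2 fold change of -0.70 with adjusted p = 0.0149, under the minimum size. The glycosyltransferase gene Lfng, which tunes receptors, was at 0.92 (adjusted p = 0.197) and its relative Mfng at -1.60 (adjusted p = 0.053), the latter called lower when vesicle replicate 3 or 5 or mesenchyme replicate 4 or 8 was left out (-1.95 to -1.71). Against the LCM-titled arrays alone 4 of the 21 genes were called, all higher: Jag1, Dll1, Notch1 and Hes5. Notch2 (1.17), Heyl (2.05), Hey1 (1.79) and Nrarp (1.25) were not.

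Genes of Wnt signalling did not move as a group. Of 8 ligand genes, Wnt4 rose and Wnt5a, a ligand of stromal and mesenchymal cells, fell by 2.60 (SE 0.70, adjusted p = 0.0109). The other probe sets of Wnt5a gave -1.035, -0.86 and 0.036 and were not called. Of 23 targets and modulators 2 rose (8.7%, against 3.87% of all genes), Ccnd1 and Dkk1, and 2 fell (8.7%, against 7.93%). The median was 0.53. Both rises are also in the renal vesicle list. Rspo3, a secreted enhancer of Wnt receptors, stood at 5.87, 12.27, 7.77, 8.80 and 8.73 in the vesicle and 11.79 to 12.80 in the mesenchyme (median 12.40). It fell by 3.68 (SE 0.82, adjusted p = 0.00237), while vesicle replicate 2 stayed within the mesenchyme range. The transcription factor gene Tcf7l2 fell by 1.79, but was at -1.16 and not called without vesicle replicate 4. The general feedback target Axin2 was at 10.34 to 11.06 against 10.73 to 11.97, a log2 fold change of -0.56 (adjusted p = 0.576). Lef1, a partner of beta-catenin and itself a target, was at 10.99 to 12.91 against 10.67 to 11.67, a log2 fold change of 1.06 (adjusted p = 0.239) that was called with the 13 arrays fitted alone. Sp5, at 1.07 (adjusted p = 0.23), and Nkd1, at -0.48 (adjusted p = 0.605), were not called. Another Nkd1 probe set was called higher, at 1.69 (limma, p adjusted over all probe sets kept = 0.00834), and the rest, at -0.49 and 0.35, were not called. The letters CTTTGA, the core of Tcf and Lef sites, are in 16.0% of windows. There were 2 matches for Sp5 and 2 in 1 of 4 Lef1 windows, and none for Axin2 or Nkd1. Set against only the LCM-titled arrays Wnt5a (-2.62), Rspo3 (-3.51) and Tcf7l2 (-1.26) were not called, nor was Wnt5a (-1.77) without vesicle replicates 2 and 3. The rises of the target list were 1 without vesicle replicate 1, 4 or 5.

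Of 20 tested genes of fibroblast growth factor signalling 4 rose, the ligand gene Fgf8 and 3 receptor genes, and 1 fell. These shares were 20.0% and 5.0%, against 3.87% and 7.93% of all genes, and the median was 0.38. Fgfr1, the receptor gene that acts in nephron progenitors, stood at 13.53, 12.31, 13.04, 13.06 and 13.04 in the vesicle and 9.82 to 12.19 in the mesenchyme (median 10.92). It rose by 2.01 (SE 0.37, adjusted p = 0.000274) without overlap, but 1 of its 3 probe sets was called, and the strongest one outside the kinds that may cross-hybridize gave 0.31. Fgfr4 rose by 1.99 (SE 0.45, adjusted p = 0.00279), at 8.56 to 11.47 against 7.47 to 9.25. Its other probe sets gave -0.014, 0.261 and 0.292 and were not called. Fgfr3 rose by 1.24 (adjusted p = 0.0437), but without any vesicle replicate or mesenchyme replicate 2, 6 or 8 it was at 0.90 to 1.32 and not called. The decoy receptor gene Fgfrl1 was at 13.99 to 14.76 against 13.22 to 13.94, apart in every array, with a log2 fold change of 0.96 (adjusted p = 0.0118), just under the minimum, and was called at 1.01 to 1.09 without vesicle replicate 2 or mesenchyme replicate 8. Fgfr2 was not called (0.86, adjusted p = 0.0615). Fgf9 (-0.17, adjusted p = 0.916) and Fgf20 (0.08, adjusted p = 0.938), ligands that maintain progenitors, were not called, nor were the response genes Spry1 (0.20, adjusted p = 0.725), Etv4 (0.44, adjusted p = 0.697) and Etv5 (-0.13, adjusted p = 0.952). Dusp6, a feedback phosphatase gene of the same response, fell by 1.48 (adjusted p = 0.0135), with mesenchyme arrays at 13.22 to 13.52 where titled LCM and at 14.50 to 15.28 where titled dissection or collagenase. Fgf15, picked out after its values were seen, rose by 4.17 (SE 0.66, adjusted p = 5.2e-05), at 8.73 to 11.60 against 5.45 to 7.47. Without vesicle replicates 2 and 3, Dusp6 (-1.36) and Fgfr3 (1.34) were not called and Fgfr2 (1.21) and Fgfrl1 (1.08) were. In the contrast with the LCM-titled arrays alone none of the 20 listed genes was called at limma's adjusted p, although Fgfr1 was at 1.39, Fgfr3 at 0.66, Fgfr4 at 1.76 and Dusp6 at -0.68; Fgf15 was called, at 3.65.

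In the bone morphogenetic protein and Tgf-beta list 5 of 29 genes rose (17.2%, against 3.87% of all genes) and 2 fell (6.9%, against 7.93%). The median was 0.13. Beside Bmp2, the activin receptor gene Acvr2b rose by 1.41 (SE 0.38, adjusted p = 0.0104). Bmp5 fell by 2.52 (adjusted p = 0.00627) in 1 of 3 probe sets, and its most variable probe set gave -0.29. Tgfb2, a ligand gene of mesenchymal growth, fell by 2.35 (adjusted p = 0.00331). Bmp7, which progenitors themselves make, was at 11.52 to 12.70 against 11.44 to 13.20, a log2 fold change of -0.03 (adjusted p = 0.977). The response gene Id4 rose by 1.44, at 1.13 and not called (adjusted p = 0.0558) without vesicle replicate 4, while Id1 was at 0.44 (adjusted p = 0.489). Bmp4 rose by 1.22 (adjusted p = 0.0438) and lost the call, at 1.09 to 1.30, without vesicle replicate 1, 2, 4 or 5 or mesenchyme replicate 2, 4, 5, 6 or 7. Bambi, a decoy receptor gene, rose by 1.14 (adjusted p = 0.021), and was at 1.04 to 1.07 and not called without vesicle replicate 2 or 5. Bmp2 and Id4 were the genes of this list called against the LCM-titled arrays alone. Acvr2b (1.02), Bmp4 (1.13), Bambi (0.57), Bmp5 (-2.67) and Tgfb2 (-2.23) were not. The most variable probe set of Tgfb2 gave -1.03, and without vesicle replicates 2 and 3 neither Bmp4 (1.36) nor Bambi (1.02) was called.

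Most nephron progenitor genes were not called, as was so of all genes tested. Of 16 tested, 2 fell and none rose, with a median of -0.32. Over all genes 7.93% fell and 3.87% rose, with a median of -0.057. Six2 stood at 10.22, 10.18, 10.10, 9.74 and 9.96 in the vesicle, and at 11.32 to 12.30 in the LCM-titled mesenchyme arrays, 12.62 in the untitled one and 14.31 to 14.98 in the dissection and collagenase arrays. The vesicle arrays lay close to each other and below all mesenchyme arrays, whose own spread was wider. The Six2 protein's partner Eya1 was at 11.77 to 13.96 against 13.12 to 14.88, a log2 fold change of -1.27 (adjusted p = 0.309). Gdnf, the growth factor gene that draws out the ureteric bud, was at 10.78, 11.66, 10.69, 11.63 and 11.65 against 12.92 to 14.31, apart in every array but not called. Uncx, a homeobox gene of the cap, was at 12.26, 11.72, 12.25, 12.78 and 12.54 against 10.69 to 11.65 and likewise not called (1.12, adjusted p = 0.366). The fit over all components gave Gdnf an SE of 0.99 and Uncx one of 0.78, and both were called with the 13 arrays fitted alone. Wt1 (0.73, adjusted p = 0.252), Sall1 (0.76, adjusted p = 0.335), Itga8 (0.09, adjusted p = 0.909), Crym (-0.36, adjusted p = 0.756), Capn6 (-0.33, adjusted p = 0.742), Hoxa11 (-0.31, adjusted p = 0.533) and Hoxd11 (-0.28, adjusted p = 0.638), all genes of the cap, were not called. Cited1, a mark of the least committed cap cells, was low and scattered in both groups, at 5.41 to 9.08 and 5.64 to 9.05. Traf1 was at -1.85 (adjusted p = 0.0622), and was called at -2.30 without vesicle replicate 2. Against the LCM-titled arrays alone neither gene that fell was called, with Six2 at -1.86 and Meox1, a mesoderm homeobox gene, at -3.20.

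Of 10 cadherin genes 4 rose, Cdh1, Cdh4, Cdh6 and Cdh16, and 2 fell, Cdh5 and Cdh11, with a median of 0.52. These shares were 40.0% and 20.0%, against 3.87% and 7.93% of all genes. Cdh1, which encodes E-cadherin, stood at 11.16 to 12.75 in the vesicle. The mesenchyme held 8.39 to 9.56 in its LCM-titled arrays, 10.45 in the untitled one and 5.33 to 6.68 in those titled dissection or collagenase, and the groups did not overlap. Cdh4, which encodes R-cadherin, rose by 2.34 (SE 0.37, adjusted p = 4.26e-05), at 11.11 to 13.18 against 9.01 to 10.42. Cdh2, which encodes N-cadherin, was at 12.56, 11.87, 12.54, 11.76 and 12.19 against 13.07 to 13.49 (median 13.28), a log2 fold change of -1.10. It was apart in every array, and not called in the fit over all components (adjusted p = 0.372) but called with the 13 arrays fitted alone. Cdh11, the cadherin gene of mesenchymal cells, fell by 1.61, and was at -1.53 to -1.22 and not called without vesicle replicate 1 or 4 or mesenchyme replicate 3, which left 1 fall in the list. Cdh16, the cadherin gene of kidney tubules and ureteric epithelium, rose by 2.66 with overlap, and was highest in vesicle replicates 2 and 3, at 11.93 and 11.42. When only the LCM-titled arrays were the mesenchyme Cdh1 (2.79) and Cdh4 (2.35) were called and Cdh16 (1.31) and Cdh11 (-2.02) were not, nor was Cdh16 (1.89) without vesicle replicates 2 and 3.

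Of 31 junction, keratin and epithelial protease genes 9 rose (29.0%, against 3.87% of all genes) and 1 fell (3.2%, against 7.93%). The median was 0.94. Of the desmosome genes in the list Dsp and Dsg2 rose, while Jup (0.18, adjusted p = 0.796), Dsc2 (-0.11, adjusted p = 0.935) and Pkp2 (1.5, adjusted p = 0.052) were not called. Pkp2 was called under several alternative settings, among them without vesicle replicate 1 (1.94) or mesenchyme replicate 2 (1.60), and was at 0.63 without probe sets that may cross-hybridize. Dsp, which encodes desmoplakin, stood at 12.92, 12.08, 9.62, 12.74 and 13.37 against 7.06 to 9.41 (median 8.25) and rose by 3.84 (SE 0.51, adjusted p = 5.82e-06). Its lowest vesicle array was replicate 3, which still lay above the mesenchyme. The desmosomal cadherin gene Dsg2 rose by 2.70 (SE 0.68, adjusted p = 0.00608) and Spint2, an inhibitor gene of membrane proteases, by 2.62 (SE 0.38, adjusted p = 1.5e-05). Among tight junction genes, Marveld2 rose by 2.12 (adjusted p = 0.0047) and Cldn6 by 2.20 (adjusted p = 0.01), the latter at 9.64 to 11.12 against 6.60 to 10.58. Cldn7 rose by 2.48 (adjusted p = 0.0341), but was at 1.99 to 2.52 and not called without vesicle replicate 2, 4 or 5 or without mesenchyme replicate 5, 6, 7 or 8. The adaptor gene Tjp1, which encodes ZO-1, fell by 1.20 with vesicle replicate 1 at 10.31 and the others at 12.99 to 13.52, and was at -0.61 (adjusted p = 0.258) without that array and not called without mesenchyme replicate 5, 6 or 7 either (adjusted p = 0.0572 or more). Epcam (1.58, adjusted p = 0.0953) and the simple-epithelial keratin genes Krt8 (0.53, adjusted p = 0.593) and Krt18 (1.10, adjusted p = 0.125) were not called. Epcam (1.87) and Krt18 (1.38) were called without mesenchyme replicate 2. The other Epcam probe set, of a kind that may cross-hybridize, was called at 1.78 (limma, p adjusted over all probe sets kept = 0.0093). The mean level over the list was 9.79 to 10.56 in the vesicle, 8.98 to 10.05 in the LCM-titled mesenchyme, 8.37 to 8.49 in that titled dissection or collagenase and 12.24 to 12.67 in the ureteric bud. In the same arrays the ureteric markers were also higher in the LCM-titled mesenchyme, and their part in these counts was not tested. Compared with the LCM-titled arrays alone 2 of the 31 genes were called, Dsp (4.13) and Spint2 (2.44), and against those titled dissection or collagenase 17 rose, Krt8 (1.78) included. Among those not called against the LCM-titled arrays Cldn7 stood at 0.89 and Dsg2 at 2.35. Without vesicle replicates 2 and 3 Cldn7 was not called (2.35, adjusted p = 0.117).

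Polarity genes moved in both directions. Of 16, 3 rose and 2 fell, with a median of 0.12. Patj, a scaffold gene of the apical Crumbs complex, stood at 6.89, 9.12, 7.52, 9.32 and 9.84 in the vesicle and 10.50 to 11.81 in the mesenchyme (median 11.16). It fell by 2.65 (SE 0.49, adjusted p = 0.000335), with no overlap, and also against the LCM-titled arrays alone (-2.32). Another Patj probe set was called lower, at -1.595 (limma, p adjusted over all probe sets kept = 0.023), and the rest, at -0.44 and 0.122, were not called. The basolateral scaffold gene Dlg1 fell by 1.24, and was at -0.98, under the minimum size, without vesicle replicate 3. The rises were of Pard6b, Llgl2 and Scrib, at 1.43, 1.10 and 1.36, and 1 of the 3 was called without vesicle replicate 1, 4 or 5. Pard6b stood at 1.24 to 1.36 and was not called without vesicle replicate 1 or 5 or mesenchyme replicate 1 or 8, Llgl2 at 0.96 to 0.99 without vesicle replicate 4 or 5, and Scrib at 1.20 to 1.27 without vesicle replicate 1 or 4. None of the 3 was called against the LCM-titled arrays, at 1.51, 1.17 and 1.01. The falls were 1 without vesicle replicate 3 and 4 without vesicle replicate 5, and without both replicates 2 and 3 neither Dlg1 (-0.90) nor Pard6b (1.52) was called. After its values were seen, Celsr1, a planar polarity cadherin gene, was picked out for its rise of 2.42 (SE 0.44, adjusted p = 0.000247).

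Of 27 genes of the basement membrane and its receptors 7 rose, 2 fell and 18 were not called, with a median of 0.67. Rises were 25.9% and falls 7.4%, against 3.87% and 7.93% of all genes. The 5 integrin genes of the list, Itga3, Itga6, Itga8, Itgb1 and Itgb4, which encode matrix receptors, were among those not called, although Itga3 passed, at 1.01 to 1.03, without quantile normalization, and Itga6 passed, at 1.12, against the mesenchyme titled dissection or collagenase. Dag1, which encodes the laminin receptor dystroglycan, stood at 14.59, 14.40, 14.78, 14.48 and 14.81 against 12.48 to 12.95 (median 12.76), and rose by 1.89 (SE 0.20, adjusted p = 7.79e-08). Both groups were tight and far apart, and all 4 probe sets of the gene were called. Lama4, a laminin alpha chain gene, stood at 14.30, 13.28, 14.26, 14.36 and 14.60 against 10.54 to 12.66 (median 11.48) and rose by 2.61 (SE 0.41, adjusted p = 4.33e-05), although its most variable probe set gave 0.57. Lama1, the alpha chain gene of early nephron epithelium, rose by 1.90 (SE 0.54, adjusted p = 0.015), and was at 1.62 (adjusted p = 0.0569) without vesicle replicate 5. Lamc1, the gamma chain gene, rose by 1.79 (SE 0.31, adjusted p = 0.000146), and Col4a1, the collagen IV chain gene, by 1.23 (SE 0.20, adjusted p = 5.46e-05). Its partner chain gene Col4a2 was not called (0.34, adjusted p = 0.354), nor was Lama5, the alpha chain gene of mature tubules (0.88, adjusted p = 0.469). Frem2, an epithelial gene of the Fraser complex that anchors epithelium to the matrix, rose by 2.90 (SE 0.49, adjusted p = 0.000113), at 11.96 to 13.39 against 8.57 to 10.45. Frem1, which mesenchyme supplies to that complex, was at -1.10 (adjusted p = 0.0547), and was called at -1.27 without mesenchyme replicate 8. The falls were of Lama2, the laminin chain gene of muscle and mesenchyme, by 3.29 (SE 0.70, adjusted p = 0.00141), and of the linker gene Nid1 by 1.59, the latter at -1.40 to -1.29 and not called without vesicle replicate 1 or 4. Against the LCM-titled arrays alone 6 of the 27 genes rose and 1 fell, with Lama1 (1.51) and Nid1 (-1.62) not called, and without vesicle replicates 2 and 3 the counts were 7 and 2. The most variable probe sets of Lamc1 and Nid1 gave 1.41 (adjusted p = 0.0894) and -0.10.

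Genes of the mesenchymal state and of interstitial matrix fell in part. Of 14 genes of the first list 8 fell and none rose, with a median of -1.47. Of 20 matrix genes 8 fell and none rose, with a median of -1.14. The falls were 57.1% and 40.0%, against 7.93% of all genes. Vim, which encodes vimentin, stood at 11.15, 13.45, 13.09, 12.02 and 11.85 against 14.08 to 15.17 (median 14.90), and fell by 2.46 (SE 0.37, adjusted p = 2.95e-05), although its most variable probe set was at -1.15 and not called. Snai2, a repressor gene of epithelial fate, stood at 7.39, 12.23, 12.75, 12.03 and 10.95 against 13.29 to 14.56, and fell by 2.87 (SE 0.64, adjusted p = 0.00232). The groups did not overlap for either gene, and vesicle replicates 2 and 3 held the highest vesicle values of both. Prrx1, a homeobox gene of mesenchyme, fell by 2.87. Col3a1, a fibrillar collagen gene, stood at 11.05, 14.43, 16.01, 11.90 and 13.08 against 14.89 to 16.17 (median 15.69) and fell by 2.37 (SE 0.47, adjusted p = 0.000827), with vesicle replicate 3 inside the mesenchyme range. The collagen genes Col1a1 and Col5a2 fell by 2.39 and 2.55. Snai1 (0.34, adjusted p = 0.601) and Ncam1 (-0.01, adjusted p = 0.986), an adhesion gene that both tissues use, were not called. Fn1, the fibronectin gene, fell by 1.01 at the edge of the threshold, lost the call at -0.99 to -0.93 in 9 of 13 fits that left out 1 array (vesicle replicate 1, 2 or 4, mesenchyme replicate 1, 2, 3, 5, 6 or 7), and stood at 0.93 in its most variable probe set. Without vesicle replicate 1 or 4 the mesenchymal list had 5 or 4 falls, and the matrix list had 5 without vesicle replicate 1. Stroma marker levels differ between the vesicle arrays in the same way, as given above, and 6 of 13 of those markers fell; their part in the matrix and mesenchymal falls was not tested. Leaving out vesicle replicates 2 and 3, the arrays highest in stroma markers, gave 9 falls in each list, with medians of -2.07 and -1.78, and Col3a1 at -3.65. Set against only the LCM-titled arrays 3 and 2 genes fell, Vim, Snai2 and Prrx1 in the first list and Col3a1 among the 2 of the second, while Col1a1 (-1.93), Col5a2 (-2.45) and Fn1 (-1.14) did not.

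Positional and growth regulators showed a few separate changes. Of 12 Hox genes tested of groups 8 to 13, Hoxc10 fell by 1.93 (adjusted p = 0.00181), at 10.80 to 11.66 against 12.29 to 14.52, and Hoxd13 fell by 2.72, while Hoxa11 and the others were not called. The 2 falls were 16.7% of the list, against 7.93% of all genes. In the retinoic acid list Cyp26a1, which encodes the enzyme that degrades retinoic acid, rose by 3.15 (SE 0.74, adjusted p = 0.0036), at 9.81, 9.69, 5.42, 11.58 and 11.89 against 5.37 to 8.26, with vesicle replicate 3 at the floor. The receptor gene Rarg fell by 1.56. Gli2, a transcription factor gene of hedgehog signalling, stood at 9.56, 11.30, 7.96, 10.45 and 8.72 against a narrow 12.45 to 13.31 (median 13.04) and fell by 3.36 (SE 0.68, adjusted p = 0.000839), without overlap and also against the LCM-titled arrays (-3.31). In the guidance list of 18 genes 2 fell (11.1%, against 7.93% of all genes) and 1 rose (5.6%, against 3.87%). There were 5 falls without vesicle replicate 2 and 4 without 3. The rises were 2 without vesicle replicate 1 or mesenchyme replicate 1 or 3. The semaphorin receptor gene Plxna2 fell by 3.94 (SE 0.58, adjusted p = 2.03e-05) and the netrin receptor gene Unc5c fell by 2.43, while the ephrin gene Efnb1 rose by 1.22. Of 9 genes of the insulin-like growth factor list 1 rose (11.1%, against 3.87% of all genes) and 2 fell (22.2%, against 7.93%), with a median of -0.02. The rise was of the binding protein gene Igfbp7, by 2.16 (SE 0.30, adjusted p = 9.45e-06), and both falls were of other binding protein genes. There was 1 fall without vesicle replicate 1, 3 or 5 or mesenchyme replicate 1, and none against the LCM-titled arrays alone. Without mesenchyme replicate 1 there were 2 rises. Lin28a and Trim71, which hold cells in an early developmental time, fell by 2.04 and 2.27; Trim71 was at -1.86 and not called without vesicle replicate 2. In the contrast with the LCM-titled arrays alone Hoxc10 (-1.11), Hoxd13 (-2.97), Cyp26a1 (2.93), Rarg (-1.23), Unc5c (-2.10), Efnb1 (0.84), Lin28a (-1.78) and Trim71 (-1.48) were not called. Without vesicle replicates 2 and 3, Hoxd13 (-2.33) and Trim71 (-1.65) were not.

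Proliferation genes did not separate the groups. None of 20 cell cycle genes was called by limma (1 had an unadjusted p under 0.05), with a median of 0.08, although the replication gene Mcm4 was at -0.85 with adjusted p = 0.0147, under the minimum size. Mki67 stood at 14.52 to 15.64 in the vesicle and 13.76 to 15.19 in the mesenchyme (0.49, adjusted p = 0.221). Of 12 genes of cell cycle inhibitors and D cyclins 2 rose, 3 fell and 7 were not called, with a median of -0.37. Over all genes 3.87% rose and 7.93% fell. Ccnd1, which encodes cyclin D1, stood at 15.90, 15.64, 14.87, 15.79 and 15.80 against 12.81 to 13.87, all apart. It rose in all 3 of its probe sets. Among the falls were Cdkn1c (-1.12) and Ccnd3 (-1.02). The other probe sets of Ccnd3 gave -0.27 and -0.54 and were not called. No fall of this list was called against the LCM-titled arrays alone. The inhibitor gene Cdkn1b rose by 1.43 (SE 0.33, adjusted p = 0.00295) and Cdkn2c fell by 1.68 (SE 0.42, adjusted p = 0.00633), neither called against the LCM-titled arrays alone (1.11 and -1.71). Of cilium and cyst genes, Cys1, which encodes cystin, rose by 2.28 (SE 0.45, adjusted p = 0.000669) and the ciliary motor gene Kif3a fell by 1.5 (SE 0.39, adjusted p = 0.00825); against the LCM-titled arrays alone Kif3a was at -1.49 and not called, nor was it (-1.22) without vesicle replicates 2 and 3, where Mcm4 was called lower (-1.05).

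**Figure D4:**
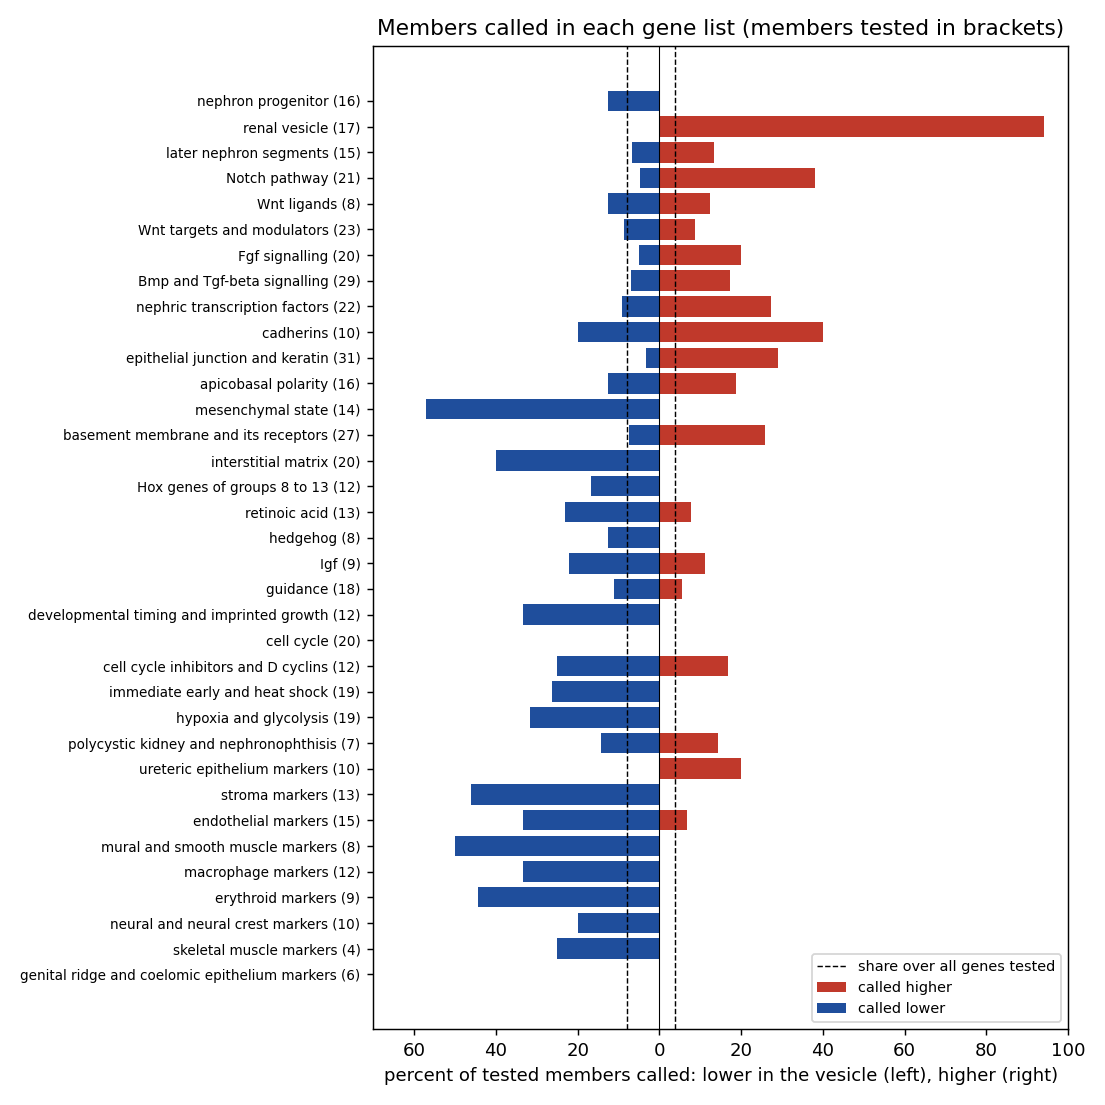
Share of tested members called higher (red, right) and lower (blue, left) in the vesicle for each of 35 gene lists, as a percentage of the tested members given in brackets; dashed lines mark the shares over all genes tested, 3.87% and 7.93%. The renal vesicle list has 94.1% called higher and the mesenchymal state list 57.1% called lower, while no cell cycle gene was called.

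Of 19 immediate early and heat shock genes 5 fell (26.3%, against 7.93% of all genes), but the mesenchyme separated by title. Fos, a transcription factor gene induced within minutes, stood at 6.41, 8.42, 7.84, 7.43 and 7.27 in the vesicle, at 6.55 to 8.36 in the LCM-titled mesenchyme and at 14.82 to 15.49 in that titled dissection or collagenase. The vesicle lay level with the LCM-titled arrays and far below the other 4. Against the LCM-titled arrays alone no gene of the list was called, with a median of -0.11 (limma gave 2812 unadjusted p under 0.05 over all genes there), and against those titled dissection or collagenase 12 were lower. Fos was at -0.18 in the former and -7.70 in the latter, and at -3.93 (adjusted p = 0.0505) without vesicle replicate 1. Without vesicle replicate 1 or mesenchyme replicate 7 there were 2 and 3 falls, and without mesenchyme replicate 4 there were 8. Of 19 hypoxia and glycolysis genes, 6 fell against all 8 arrays (31.6%), 5 against the LCM-titled ones and 6 against those titled dissection or collagenase. Tpi1, a glycolytic enzyme gene, stood at 12.64, 14.04, 13.17, 13.12 and 13.36 against a lowest value of 14.45 and a median of 14.91 and fell by 1.70 (SE 0.21, adjusted p = 1.58e-06). Every vesicle array was below every mesenchyme array. Pdk1, a gatekeeper gene of glycolytic flux, fell by 2.48, and Ndrg1, a hypoxia response gene, fell by 2.72, with its value outside probe sets that may cross-hybridize at -0.58 and the most variable probe set of Pdk1 at -1.01, neither called. Mean levels over the list were 11.24 to 11.82 in the vesicle and 12.29 to 12.56 in the mesenchyme.

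Markers of other cells were called lower in part, in counts that depend on the mesenchyme arrays used. Falls were 33.3% of the endothelial, 50.0% of the mural, 33.3% of the macrophage and 44.4% of the erythroid list, against 7.93% of all genes. Rises were 20.0% of the ureteric list, against 3.87%. Ret, the receptor gene of the ureteric tip, stood at 6.18, 12.17, 12.90, 8.94 and 9.11 in the vesicle and at 7.99 to 12.81 in the mesenchyme, and Calb1, a ureteric calcium-binding protein gene, at 10.48, 15.54, 12.68, 9.39 and 11.04 against 7.73 to 14.82. Both were highest in vesicle replicates 2 and 3, and neither was called. Of 10 ureteric markers 2 rose, Emx2 and Cdh16, and none did so against the LCM-titled arrays alone. Of 15 endothelial markers 5 fell, among them Cdh5, which encodes VE-cadherin, by 1.75 (adjusted p = 0.0126). The tight junction gene Cldn5 rose by 1.70 (adjusted p = 0.00696) instead, at 12.97 to 13.35 in the vesicle. The endothelial count was 2 without vesicle replicate 1 and 3 without vesicle replicate 2 or 5 or mesenchyme replicate 1, 2, 3, 5 or 7. Of 8 mural markers 4 fell, led by Rgs5 (-2.79, adjusted p = 0.00239), and 1 and 2 without vesicle replicates 1 and 4. The other probe sets of Rgs5 gave 0.805, 0.618 and -1.025 and were not called. Of 12 macrophage markers 4 fell, the surface receptor gene Adgre1 by 1.91 (adjusted p = 0.00237), with 1 fall without vesicle replicate 4 and 2 without vesicle replicate 1, 2 or 5 or mesenchyme replicate 2, 3, 4, 7 or 8. Of 9 erythroid markers 4 fell, the embryonic globin gene Hba-x by 2.95 (adjusted p = 0.000821). Nefl, a neurofilament gene, fell by 4.67, with vesicle replicate 3 at 10.83 and the others at 5.33 to 6.85, and the muscle actin gene Actc1 fell by 4.13. Without vesicle replicate 1 or 4 the neural list had 1 fall in place of 2, and without replicate 3 it had 4. When only the LCM-titled arrays were the mesenchyme, 0 of 12 macrophage, 1 of 15 endothelial, 1 of 8 mural, 2 of 13 stroma and 2 of 9 erythroid markers were called lower by limma, and Adgre1 (-1.34) and Cldn5 (1.5) were not called. That contrast called 296 of all 15709 genes lower. The medians of these 5 lists in it were, in the same order, -1.1, -1.17, -1.79, -1.26 and -2.13. Against all 8 mesenchyme arrays they were -0.98, -1.17, -1.3, -1.23 and -1.31. Against the arrays titled dissection or collagenase the macrophage, endothelial and mural lists had 1 fall each. With the title date as a random block the macrophage list had 2 falls and the endothelial list 3. None of 6 genital ridge markers was called by limma (1 had an unadjusted p under 0.05), with Nr5a1 at 0.99 (adjusted p = 0.0789), called at 1.28 without vesicle replicate 2.

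Set beside the other 7 components of the series, the vesicle mean was the highest of all 9 for 282 of the 608 genes that rose (46.4%, against 11.4% of all genes tested), and the mesenchyme mean was the highest for 474 of the 1246 that fell (38.0%, against 10.8%). These shares use the same arrays as the calls and are a description. A gene that rose cannot have its highest mean in the mesenchyme, nor one that fell in the vesicle. Larger shares therefore follow in part from the call. In 22 genes every vesicle array lay above every array of the other 8 components, and 15 of the 22 were among the rises. Such a gene lies above every mesenchyme array by its selection, so the overlap with the rises is no separate result. Tmem100, a membrane protein gene that responds to Bmp signals, had the widest such gap, 1.44, with vesicle arrays at 11.67, 11.42, 11.01, 10.79 and 10.72 and mesenchyme, the next highest mean, at 7.79 to 9.28. It rose by 2.45 (SE 0.43, adjusted p = 0.000178). Picked out after their values were seen, Grhl1, a grainyhead factor gene of epithelia, had a gap of 0.62 and Npy, which encodes neuropeptide Y, one of 0.59. Npy stood at 12.40, 11.54, 11.57, 11.22 and 11.87 against 7.41 to 9.21 and rose by 3.19 (SE 0.50, adjusted p = 3.98e-05). In 21 genes every mesenchyme array lay above all others, 19 of them among the falls, with the widest gaps in the neuronal phosphoprotein gene Crmp1 (1.01) and in Hba-x (0.73). Their overlap with the falls likewise follows in part from the selection. For Bmp2 the lowest vesicle array equalled the highest other array to 2 decimals.

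**Figure D5:**
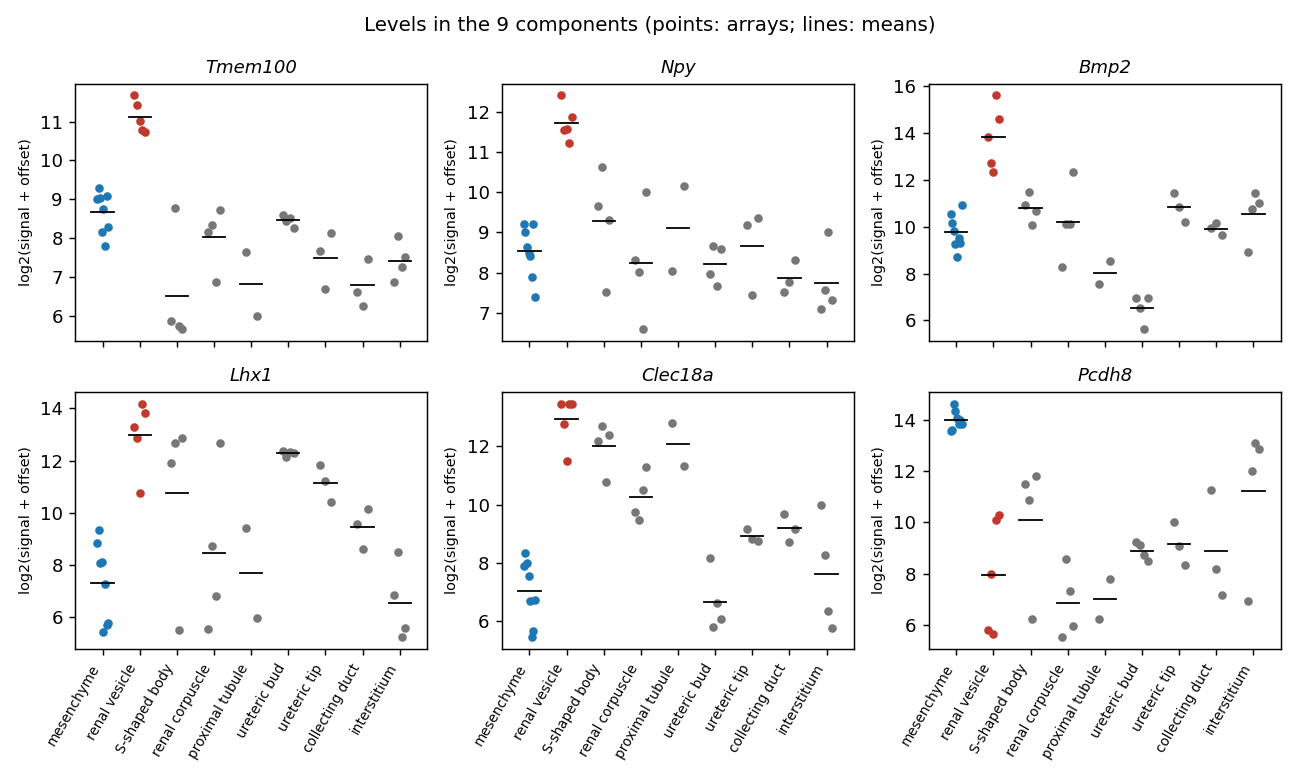
Levels of 6 genes, log2(signal + offset) on the vertical axis, in every array of the 9 components, with the mesenchyme in blue, the renal vesicle in red and the other components in grey; lines are means. Tmem100 and Npy stand above all other arrays in the vesicle, Pcdh8 in the mesenchyme, while Lhx1 and Clec18a are also high in arrays of other components.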

How the data were processed

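Labels and protocols gave 5 renal vesicle and 8 metanephric mesenchyme samples, 1 array of 45101 probe sets each. The values are intensities that the authors deposited, made with GCOS per the submitters' processing notes (version and annotation not given in the sources used here); their 2% trimmed mean is 1500 on every array. Here the intensities were given an offset of 34.62 (their 20th percentile), taken to log2 and quantile normalized over all 37 arrays. Of the probe sets, 34945 name 1 gene, 932 several and 9160 none in GEO's platform annotation, and 64 are controls. Probe sets above 7.89 in at least 2 arrays were kept (29068), and the one with the highest mean stood for each of 15709 genes, of which 7499 had several. limma 3.58.1 in R 4.3.3 (lmFit, eBayes with an intensity trend) fitted 1 mean for each of 9 components with 28 residual degrees of freedom, and p-values were adjusted by Benjamini-Hochberg over all genes. On simulated data with 50 changed genes of each size, 19 of 50 true changes of 1.5, 37 of 2, 47 of 3 and 50 of 4 on the log2 scale were called, with 8 false calls. The number of arrays limits the precision. The 35 lists (487 of 532 symbols tested), the rule for named genes and the contrast were chosen with earlier results of these data known, and no test was made over a list. Genes were named from the 10 largest rises and falls without overlap of the groups, up to 3 calls and 1 other member of each list, and any member of 12 lists of induction, signalling, adhesion, basement membrane and mesenchymal genes. Outside the rule, chosen after their values were seen, are Cdkn1b, Celsr1, Cldn6, Cldn7, Clu, Crmp1, Dlg1, Dsc2, Epcam, Fgf15, Grhl1, Hs3st3b1, Jup, Krt8, Krt18, Marveld2, Mki67, Npy, Pdgfa, Pkp2, Slc32a1 and Tpi1. Alternatives changed the offset, normalization, filter, probe set, weights, arrays, moderation, call rule and title date. Promoter sequences are RefSeq's, assembly GRCm38.p6.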

Additional observations from a re-analysis of the deposited data

Results flagged for a closer look

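In 356 groups of arrays (178 named genes, vesicle and mesenchyme each), 26 had 1 array far from the rest of its group by Dixon's criterion, 11 in the vesicle and 15 in the mesenchyme. Chance gives about 1 in 20 groups, and the genes are not independent.

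Mesenchyme replicate 8, titled collagenase, was the far array for 12 genes. It was lowest for the Notch ligand gene Dll1 (7.91, next array 9.39), for Hes1 (9.33), for the receptor genes Fgfr2 (12.02) and Fgfr3 (7.21), for Fn1 (14.21), the integrin gene Itga8 (11.86) and the proliferation gene Mki67 (13.76). It was highest for Clu (11.74), Fgf9 (11.26), Hoxd11 (10.44), Id4 (13.50) and Nkd1 (12.49). Mesenchyme replicate 4 was lowest for Notch1 (10.15) and Synpo (9.76), and replicate 1 was highest for Nefl (13.70).

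In the vesicle, replicate 3 was lowest for Bmp7 (11.52) and Ccnd1 (14.87) and highest for Nefl (10.83, next array 6.85). Replicate 2 was highest for Adgrl3 (10.75, next array 5.44) and lowest for Fgfrl1 (13.99) and Lama4 (13.28). Replicate 1 was lowest for Synpo (5.34), Tjp1 (10.31, next array 12.99) and the integrin gene Itgb1 (10.34). Replicate 4 was lowest for Eva1a (10.58), and replicate 5 was highest for Dsg2 (12.68).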

How the results depend on the processing

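The choice that moved the counts of calls by over 1.5 times was the mesenchyme compared: against the 3 LCM-titled arrays alone 149 genes were called higher and 296 lower, 445 in either direction, and 66 of the 122 named calls held. All 608 rises and 1246 falls over all genes kept their sign in that contrast, which shares arrays with the main one. With 3 mesenchyme arrays in place of 8 the standard error is larger at equal spread. How much of the drop in calls comes from the number of arrays and how much from the way named was not tested. Without vesicle replicates 2 and 3, an alternative chosen after seeing the data, 109 of the named calls held. Leaving out each array in turn gave 468 to 635 higher, 912 to 1350 lower and 1380 to 1985 in either direction, and 100 of the named calls held in all 13 fits. With the most variable probe set of each gene 106 held and 1 value reversed, Fn1 at 0.93; the cause was not tested. In each other alternative at least 113 held and no named gene reversed. The fit of the 13 arrays alone called 8 further named genes. The title date as a random block had a correlation of 0.06. No paired analysis was possible because the titles of the 2 groups share only the number 2.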
